A study of Mus musculus with 6 samples.

Results

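Of 75867 forebrain nuclei kept for analysis, 959 met a marker rule written for pericytes and vascular smooth muscle cells, a share of 1.26% (exact binomial interval 1.19 to 1.35%). The interval covers counting error only, and shares of single libraries ran from 0.565 to 1.62%. The rule asked for at least 3 of the 9 genes Rgs5, Pdgfrb, Kcnj8, Abcc9, Notch3, Atp13a5, Higd1b, Myh11 and Acta2 with a UMI (a unique molecular identifier, which counts 1 captured RNA molecule). It also allowed at most 1 UMI of the endothelial gene Flt1, at most 1 of the fibroblast genes Dcn, Col1a1 and Slc6a13 together, and at most 1 of the neuronal genes Slc17a7, Slc17a6, Gad1 and Gad2 together, and left out nuclei with a mitochondrial share of 10% or more. The members are called mural-rule nuclei here, after the mural cells of the vessel wall. The genes that chose them are given as a description only.

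The nuclei came from frozen forebrains of untreated mice at postnatal day 16, 3 WT and 3 Npc1-/-, with 1 droplet library per mouse. Npc1-/- mice carried the Npc1nih allele, a spontaneous null of the gene for a lysosomal cholesterol transporter, in every cell of the body. They and their WT littermates were F1 hybrids of BALB/cJ and C57BL6/J backgrounds. The study as a whole used about equal numbers of both sexes, but no label gives the sex of these mice. No label tied a library to a mouse, so WT and Npc1-/- were not compared, and libraries are named 1 to 6 after the suffix of their barcodes and were not treated as replicates. Libraries held 8215 to 16109 kept nuclei (median 12981), and the median UMI count per nucleus was 4471 to 5439. Members had a median of 3548 UMIs, against 4957 over all kept nuclei.

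Mural cells wrap the endothelial tube. Pericytes sit on capillaries inside the basement membrane and are recruited by platelet-derived growth factor B from endothelium acting on the receptor PDGFRB, while NOTCH3 holds smooth muscle on arteries in a contractile state. Smooth muscle contracts through actin and myosin, and brain pericytes carry transporters, ATP-sensitive potassium channels (Kcnj8 and Abcc9 encode their pore and regulatory subunits) and receptors for vasoactive peptides. Astrocyte endfeet cover nearly the whole outer surface of these vessels.

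Promoters are shown for 2 genes, of the contractile programme and of NOTCH signalling, that stood higher in members than in endothelial nuclei and held a motif match. The contractile genes Cald1 and Mylk also stood higher but held no match and are not shown. The motif search was added after the values were seen. Myl9 encodes a regulatory light chain of myosin, and Hey2 a transcriptional repressor that NOTCH switches on. Capitals mark a CArG box, the element that serum response factor recognises, in Myl9 and the letters GTGGGAA or their reverse complement TTCCCAC, which the NOTCH partner RBPJ recognises, in Hey2. Each window runs from 250 bases before to 50 after the RefSeq start, on the strand of the gene, in build GRCm38.p6, at chr2:156775214-156775513 on the plus strand for Myl9 and chr10:30842734-30843033 on the minus strand for Hey2.
Myl9: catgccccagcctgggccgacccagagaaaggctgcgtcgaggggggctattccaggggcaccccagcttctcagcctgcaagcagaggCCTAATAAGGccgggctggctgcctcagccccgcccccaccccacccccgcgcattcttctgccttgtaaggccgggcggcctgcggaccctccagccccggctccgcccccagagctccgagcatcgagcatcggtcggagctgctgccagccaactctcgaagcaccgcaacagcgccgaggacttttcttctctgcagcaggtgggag
Hey2: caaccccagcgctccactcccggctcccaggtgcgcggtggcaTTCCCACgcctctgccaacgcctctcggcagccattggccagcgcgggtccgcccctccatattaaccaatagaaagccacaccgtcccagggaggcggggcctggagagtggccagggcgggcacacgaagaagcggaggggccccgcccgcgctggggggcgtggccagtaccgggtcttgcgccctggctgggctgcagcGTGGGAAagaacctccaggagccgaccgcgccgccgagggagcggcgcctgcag
The CArG box in Myl9 began 161 bases before the start, and the first of the 2 matches in Hey2 began 207 bases before it. Searched on both strands, the CArG box was found in 1.63% of 32851 promoters and the RBPJ letters in 6.38%, and neither motif contains the other. Myl9 was the 1 of 11 contractile genes with a promoter that matched the CArG pattern. Hes5 and Hey2 were the 2 of 13 PDGF and NOTCH genes with a promoter that held the RBPJ letters. The list has 19 genes, and Heyl was among those without a promoter and was not searched. None of the 6 rule genes with a promoter matched either. The CArG pattern was a strict form of 10 letters, and near forms were not counted, such as ccctatatgg in the window of Acta2. A gene without a match may thus still hold such an element. A match is a run of letters and not a known site.

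Of the 959 members, 565 had exactly 3 rule genes detected, 182 had 4 and 212 had 5 or more. The pericyte marker list summed to 968 CPM (UMIs of a class scaled to 1000000) at 3 genes, 3160 at 4 and 6034 at 5 or more, against 507 in the 3173 nuclei just outside the rule with 2 genes and 501 in 4926 nuclei chosen by an endothelial rule. The smooth muscle list gave 80.9, 355 and 430 CPM over the same 3 classes and 57.0 just outside. Both lists hold rule genes, so these steps follow in part from the rule. The endothelial rule limits several genes of the pericyte list but not Rgs5. Rgs5 alone stood at 262, 603 and 983 CPM at 3, 4 and 5 or more genes and at 385 in endothelial-rule nuclei, above the level at 3 genes. The astrocyte list, which holds none, went the other way among members, with 2956, 1709 and 897 CPM at 3, 4 and 5 or more genes. It stood at 1860 just outside the rule, below the level at 3 genes.

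At least 3 of the astrocyte markers were detected in 451 of the 959 members (47.0%), against 26.6% of all kept nuclei. In 941 nuclei chosen by a fibroblast rule it was 45.3%, close to the members, with the astrocyte list at 1931 CPM against 2388 in members. Among members the share was 60.7% at 3 rule genes, 33.5% at 4 and 22.2% at 5 or more, and it was 46.2% in nuclei just outside. Depth differed between these classes, with medians of 4137, 2840.5 and 2995.5 UMIs at 3, 4 and 5 or more rule genes. With every nucleus thinned to 2000 UMIs and the rule applied again, 21.3% of 610 members and 12.9% of all nuclei had 3 or more astrocyte markers, and at 1000 UMIs 4.56% of 570 members and 6.33% of all nuclei. Members before thinning made up 382 of the 610 and 277 of the 570, so the set of members changed along with the depth, and no order is read between members and all nuclei. Aqp4, the water channel of astrocyte endfeet, stood at 159, 131 and 83.1 CPM over those 3 classes of members, and at 373 in 2475 nuclei with many astrocyte markers. By library the share of members with 3 or more astrocyte markers was 42.1, 45.7, 50.3, 53.5, 49.2 and 33.9%, above the share in all kept nuclei of the same library each time (15.6 to 34.4%) without thinning. The comparison with endothelial-rule nuclei is therefore given below with and without the members that carry astrocyte markers, and the other comparisons with all members. How much of the astrocyte signal was RNA free in the droplets or a further nucleus in the droplet was not tested. Oligodendrocyte markers reached 3 or more in 36.5% of members and 31.05% of other nuclei, and microglial markers in 1.98% of members.

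Detection of the rule genes as a whole goes up with the number of rule genes by construction. Rgs5, a regulator of G-protein signalling in pericytes, was detected in 75.2% of members at 3 rule genes, 85.2% at 4 and 97.2% at 5 or more, but also in 71.1% of nuclei just outside, 50% of endothelial-rule nuclei and 27.7% of excitatory neurons, whose median depth was 11948 UMIs. Abcc9 was detected in 17.0, 45.1 and 81.6% of the 3 classes of members, in 10.4% just outside and in 2.19% of endothelial-rule nuclei. The endothelial rule limits Abcc9 and several other mural genes but not Rgs5, so these endothelial shares are set in part by the rule. Pdgfrb (50.8, 69.2 and 89.2%) and Notch3 (54.5, 67.6 and 94.8%) were higher at each step and were found in 15.9% and 17.6% of astrocyte-marker nuclei. Atp13a5, a P-type ATPase of pericytes, was detected in 72.2% of all members, Kcnj8 in 14.4%, Higd1b in 19.5%, Acta2 in 11.99% and Myh11 in 7.51%. Acta2 was detected in 12.2, 14.3 and 9.43% of members with 3, 4 and 5 or more rule genes, at 26.9, 39.8 and 46.2 CPM. The commonest combinations were Rgs5 with Notch3 and Atp13a5 and Rgs5 with Pdgfrb and Atp13a5, with 89 nuclei each.

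**Figure D1:**
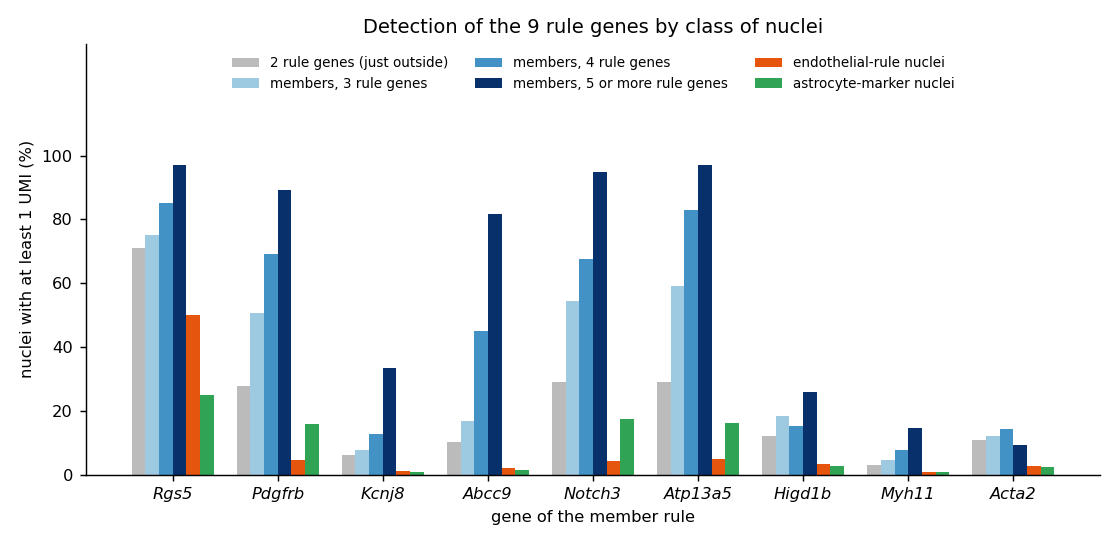
Share of nuclei with at least 1 UMI (y axis, percent) of each of the 9 rule genes (x axis), as bars by class of nuclei. Abcc9 goes from 17.0% at 3 rule genes to 81.6% at 5 or more, while Rgs5 is at 71.1% in nuclei just outside the rule.

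Libraries held 197, 254, 193, 198, 61 and 56 members, so levels in libraries 5 and 6 rest on the fewest nuclei. Atp13a5 stood at 729, 707, 769, 726, 806 and 1277 CPM in members of libraries 1 to 6. Pdgfrb stood at 245, 229, 211, 255, 328 and 417, and Abcc9 at 163, 180, 167, 228, 117 and 267. Library 6 was the highest for all 3. Acta2, smooth muscle actin, was at 34.4, 49.9, 18.4, 32.8, 18.7 and 4.85 CPM, where the value in library 6 is a single UMI.

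The Flt1 limit removed most of the nuclei richest in rule genes. Among all kept nuclei, 1254 had 5 or more rule genes, of which 212 (16.9%) met every exclusion and 948 (75.6%) had more than 1 UMI of Flt1, a receptor for vascular endothelial growth factor. For 594 of the 948 Flt1 was the 1 limit broken, and 363 of the 1254 broke the neuronal limit. These 948 had a median of 16 Flt1 UMIs and 7457.5 UMIs in all, against 2995.5 UMIs in the 212 members, and 833 of them (87.9%) had 4 or more endothelial markers. The share with Flt1 above the limit was 21.7% at 3 rule genes, 50.4% at 4, 68.6% at 5, 80.3% at 6 and 86.4% at 7 or more. It was 70.4 to 89.7% by library at 5 or more. Pericyte and endothelial RNA thus occurred in the same barcodes in most nuclei with many rule genes. Whether those barcodes hold 2 nuclei each was not tested, and members are nuclei with at most 1 UMI of Flt1 and not all nuclei with pericyte genes. At least 3 endothelial markers were still detected in 14.3% of members, against 13.4% of other kept nuclei.

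**Figure D2:**
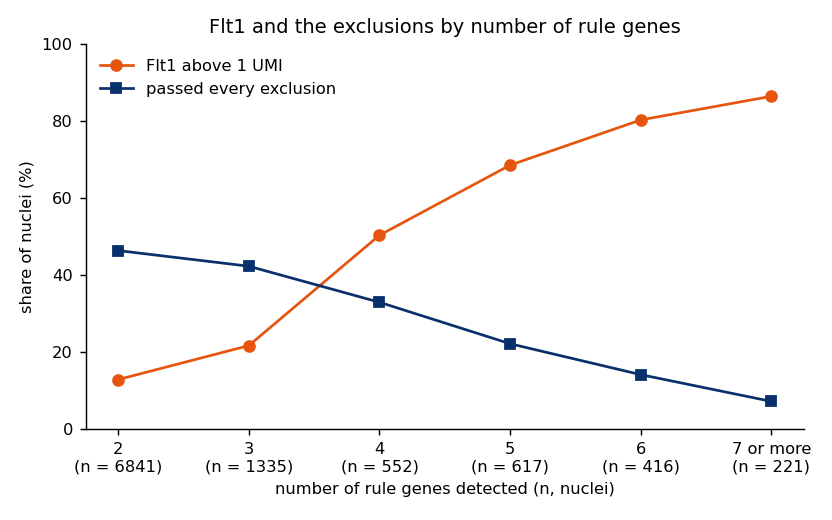
Share of kept nuclei (y axis, percent) with more than 1 UMI of Flt1 and share that passed every exclusion, by the number of rule genes detected (x axis, with the number of nuclei). The Flt1 share goes from 21.7% at 3 rule genes to 86.4% at 7 or more.

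Members were compared with endothelial-rule nuclei by the ratio of CPM over summed nuclei, since endothelium is the closest neighbour of mural cells in the vessel wall. Whether the 565 members with 3 rule genes are mural cells was not tested. A gene is called higher or lower here where the ratio was 2-fold or more with its exact counting interval outside no change, which covers counting error only and is no test across mice. The endothelial rule and the fibroblast rule below limit several mural genes to 1 UMI in all, and the part of these limits in the ratios was not tested. Of 15491 genes with 50 UMIs or more, 736 were higher (4.75% of genes measured) and 703 lower (4.54%), with a median log2 ratio of -0.02. Among genes outside the rule, 728 were higher, and 294 of these (40.4%) were also called in the 508 members with fewer than 3 astrocyte markers, where 3.36% of 15247 genes were higher and 4.45% lower. For 267 of the 728 the ratio changed sign. Of 702 lower genes 466 (66.4%) were also called. That screen was on members alone: the 508 had a median of 2836.5 UMIs against 4640 in the 451 left out, and their astrocyte list stood at 569 CPM against 918 in endothelial-rule nuclei, of which 26.6% had 3 or more astrocyte markers, with 3 of 7 astrocyte markers lower and none higher. When such nuclei were left out of both classes, which kept 3616 endothelial-rule nuclei with an astrocyte list at 417 CPM, 3.64% of 14321 genes were higher and 4.57% lower, 316 of the 728 (43.4%) and 495 of the 702 (70.5%) were also called, and 71 of the 728 changed sign. Among the lists that follow, the screen of both classes kept the calls of Prrx1 and Lama5 that the screen of members lost, lost that of the placental growth factor gene Pgf, added Ptn, and did not add Cacna1c, Ebf1, Cdk1 or Ccnb1. The counts below without astrocyte-marker members rest on the screen of members alone. In the 212 members with 5 or more rule genes 4.36% of 15105 genes were higher than in endothelial-rule nuclei and 4.83% lower. Of the 728, 268 (36.8%) were also called and 206 changed sign. Of the 702, 310 (44.2%) were also called and 73 changed sign. The 212 members held 758065 UMIs and the 508 held 1866473, against 4291869 over all members. Fewer UMIs give wider counting intervals, so a lost call alone is not read as a lost difference. Against all other kept nuclei, where 9.19% of 22118 genes were higher, 2.25% lower and the median log2 ratio was 0.26, the lists that follow were higher outside the rule in 9 of 12 cases for transporters, 8 of 14 for contractile genes, 9 of 17 for PDGF and NOTCH genes, 10 of 26 for vasoactive genes, 15 of 26 for basement membrane genes and 13 of 23 for transcription factors. They were higher in 4 of 22 cases for ion channels, 3 of 26 for TGF-beta and BMP genes, 8 of 23 for ligands, 4 of 27 for lysosomal and cholesterol genes and 5 of 15 for the cell cycle.

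Contractile genes outside the rule were higher in members in 7 of 12 cases and lower in 1, with a median log2 ratio of 1.08. Cald1, the caldesmon that regulates actin and myosin, stood at 464, 481, 417, 416, 670 and 752 CPM in members of libraries 1 to 6, against 86.2 in endothelial-rule nuclei (log2 ratio 2.45, interval 2.36 to 2.54). Myl9 stood at 43.3, 54.4, 26.0, 29.6, 65.6 and 48.5, against 9.33 (log2 ratio 2.13, interval 1.83 to 2.43). All 6 libraries were above the endothelial level for both genes. Mylk, myosin light chain kinase, was 3.62-fold higher at 60.8 against 16.8. Smtn, a smoothelin of contractile muscle, was the exception with 12.3 against 24.9. In members with 5 or more rule genes Smtn was not called and its ratio changed sign. In members without astrocyte markers 7 of 11 were higher and none lower by this measure, Myocd and Smtn were no longer called, and Tagln, an actin-binding protein of smooth muscle, was.

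Pericyte transporters and enzymes were higher in 8 of 11 cases and lower in 2, with a median log2 ratio of 2.46, and all 8 were also called without the astrocyte-marker members (9 higher of 11, median 3.30, with the purinergic receptor P2ry14 added). Slc38a11, an amino acid transporter, stood at 156, 149, 116, 150, 295 and 311 CPM in members of libraries 1 to 6 and at 1.78 in endothelial-rule nuclei (89.4-fold, log2 ratio 6.48, interval 6.02 to 6.99). It was at 2.06 in fibroblast-rule nuclei and 1.99 in astrocyte-marker nuclei, and at 41.0, 262 and 503 in members with 3, 4 and 5 or more rule genes. Its level thus followed the number of rule genes and was low in endothelial-rule, fibroblast-rule and astrocyte-marker nuclei. Among members it stood higher in the subset chosen by Acta2 and Myh11 than in the pericyte subset, as given below. Art3, an ecto-ADP-ribosyltransferase, was at 70.6 against 4.60, the gamma-glutamyl enzyme Ggt5 at 47.1 against 3.82 and the peptidase Enpep at 22.1 against 1.73. The other 2 genes went the other way, with Slco1c1, the thyroxine transporter of brain endothelium, at 179 against 622 and Slc12a7 at 1.86 against 7.10. The call of Slc12a7 was lost, without a change of sign, in members with 5 or more rule genes.

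**Figure D3:**
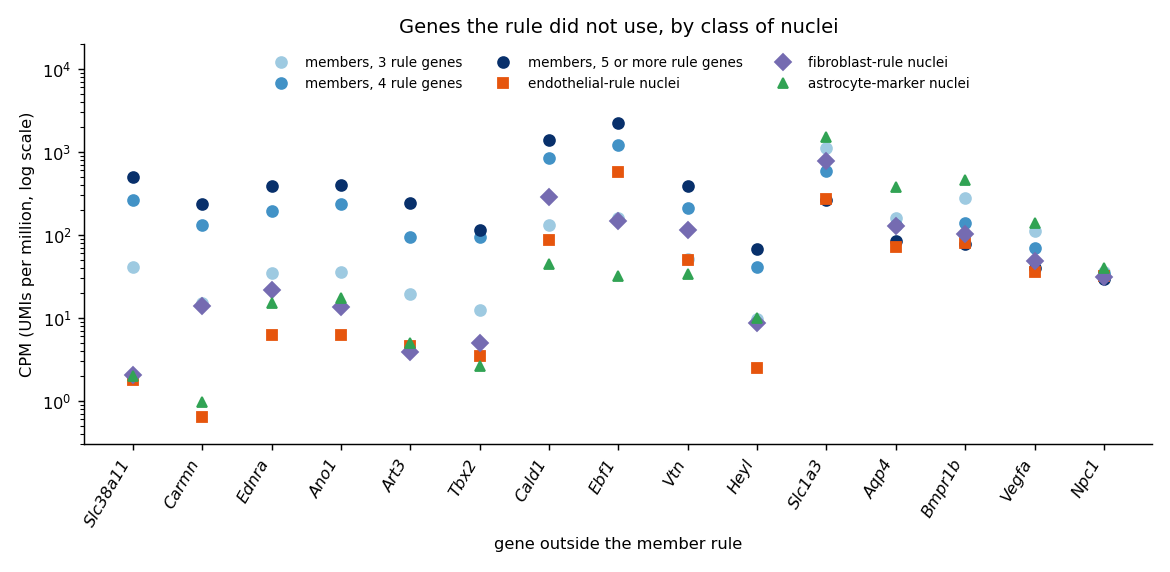
Summed CPM (log scale) of 15 genes outside the member rule (x axis) in members with 3, 4 and 5 or more rule genes and in endothelial-rule, fibroblast-rule and astrocyte-marker nuclei. Slc38a11 and Ednra go up with the number of rule genes, while Slc1a3 and Bmpr1b go down towards the members richest in rule genes.

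Of 17 genes of PDGF and NOTCH signalling outside the rule, 2 were higher in members and 4 lower, with a median log2 ratio of 0.05. The 4 lower genes are known from endothelium: Pdgfb stood at 18.4 CPM against 71.8 in endothelial-rule nuclei, the NOTCH ligands Dll4 at 4.43 against 14.4 and Jag2 at 13.98 against 49.0, and the receptor Notch4 at 8.15 against 33.0. The 2 higher genes, Heyl and Hey2, are targets of NOTCH. Heyl stood at 32.2, 34.5, 15.2, 21.1, 14.1 and 14.6 in members of libraries 1 to 6 and at 2.504 in endothelial-rule nuclei (log2 ratio 3.32, interval 2.83 to 3.81). Hey2 stood at 24.4, 28.1, 16.3, 16.9, 32.8 and 82.5, against 5.01 (log2 ratio 2.33, interval 1.93 to 2.73). All libraries were above the endothelial level for both genes, with library 6 far above the others for Hey2. Hes5, another target, was not called, at 33.6 against 18.2. All 6 were also called without the astrocyte-marker members, where Jag1 was added and the median log2 ratio was -0.11. In members with 5 or more rule genes the lower calls of Dll4 and Notch4 were lost without a change of sign.

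Receptors and second messengers of vessel tone were higher in 7 of 21 cases and lower in none, with a median log2 ratio of 0.57. Ednra, the receptor for the constrictor endothelin, stood at 125, 127, 119, 111, 136 and 131 CPM in members of libraries 1 to 6, a narrow range, and at 6.19 in endothelial-rule nuclei (19.7-fold, log2 ratio 4.30, interval 4.03 to 4.58). It was at 34.3, 193 and 384 in members with 3, 4 and 5 or more rule genes. Pde3a, a phosphodiesterase of cyclic nucleotides, was at 171 against 21.9, Pde5a, which breaks down cyclic GMP, at 130 against 47.1, and the guanylate cyclase subunits Gucy1a1 and Gucy1b1, the receptor for nitric oxide, at 112 against 35.7 and 149 against 74.2. The thromboxane receptor Tbxa2r was at 11.0 against 2.78. All 7 were also called without the astrocyte-marker members, and Rgs4, Gucy1a2 and Prkg1 were added, giving 10 of 21 and a median log2 ratio of 0.99.

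Among ion channels outside the rule, 4 of 21 were higher and 1 lower, with a median log2 ratio of -0.02. Ano1, the calcium-activated chloride channel that depolarises mural cells, stood at 141, 133, 129, 111, 136 and 199 CPM in members of libraries 1 to 6 and at 6.15 in endothelial-rule nuclei (log2 ratio 4.43, interval 4.16 to 4.71). The cation channel Trpc6 was at 64.8 against 24.6. All 4 were called without the astrocyte-marker members as well, where Trpc4 and Cacna1c, the pore of the L-type calcium channel, were added and the median log2 ratio was 0.48.

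Basement membrane genes went both ways, with 5 of 26 higher, 4 lower and a median log2 ratio of -0.16. Lamc3, a laminin chain, was at 66.6 CPM against 9.29, and Vtn (vitronectin), which pericytes secrete, stood at 164, 161, 95.4, 99.4, 150 and 218 in members of libraries 1 to 6 and at 49.2 in endothelial-rule nuclei (log2 ratio 1.47, interval 1.32 to 1.61). Lama2, which astrocytes make for the outer basement membrane, was at 426 against 78.3 and at 479 in astrocyte-marker nuclei. It stayed called without the astrocyte-marker members, at 387, and in members with 5 or more rule genes, at 675. Fn1 (fibronectin) was lower at 71.5 against 256. The collagen IV chain Col4a1 had a log2 ratio of -0.26 in all members and 0.32 without the astrocyte-marker members. It was also above 0 in members with 4 or more rule genes (0.45) and with 5 or more (0.67), and the cause of the turn was not tested. Without those members 6 were higher and 1 lower with a median log2 ratio of 0.27, Col4a5 lost its call, and the lower calls of Col4a3, Lama5 and Hspg2 were lost. The same lower calls were lost in members with 5 or more rule genes, where 2 of these ratios changed sign.

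Transcription factors given for mural cells were higher in 9 of 21 cases and lower in 1, with a median log2 ratio of 0.27. Tbx2, a T-box repressor, stood at 51.0, 40.8, 39.0, 39.1, 65.6 and 53.4 CPM in members of libraries 1 to 6 and at 3.51 in endothelial-rule nuclei (log2 ratio 3.65, interval 3.26 to 4.05). Tbx18, which marks brain pericytes and smooth muscle, was at 28.7 against 3.96 but at 153 in fibroblast-rule nuclei. Ebf1, a helix-loop-helix factor, was at 159, 1197 and 2215 in members with 3, 4 and 5 or more rule genes and at 572 in endothelial-rule nuclei. Its log2 ratio was 0.27 over all members and 1.12 in those without astrocyte markers. Without the astrocyte-marker members 7 of 20 were higher and 1 lower, with a median log2 ratio of 0.41. Prrx1, Foxs1 and Meis1 lost their calls there, and Foxs1 and Meis1 in members with 5 or more rule genes. Meis1 stood at 95.4, 75.3 and 33.0 CPM over the 3 classes of members, and at 125 in astrocyte-marker nuclei.

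Some calls in 3 further lists were lost without the astrocyte-marker members. Of 21 angiogenic and trophic ligands 5 were higher and 4 lower, with a median log2 ratio of 0.45. Of the 5, Vegfa, Fgf2 and Il33 lost their calls without those members, as did Angpt2 and Vegfc of the 4, where 2 of 21 were higher and 2 lower with a median log2 ratio of 0.14. Vegfa stood at 94.3, 97.0, 92.1, 83.5, 74.98 and 126 CPM in members of libraries 1 to 6, against 35.5 in endothelial-rule nuclei and 139 in astrocyte-marker nuclei, and at 30.003 in members without astrocyte markers. Cxcl12 and Kitl, a chemokine and a stem cell factor of endothelium, were lower at 44.0 against 326 and 72.9 against 275. Ptn (pleiotrophin), a growth factor of pericytes, was at 570, 961 and 1229 in members with 3, 4 and 5 or more rule genes against 424, short of a call over all members with a log2 ratio of 0.82. In TGF-beta and BMP signalling 4 of 26 were higher and 6 lower, and 2 were higher and 5 lower of 26 without the astrocyte-marker members (median log2 ratio -0.29). Bmp5 was at 30.99 against 3.23, while the receptor Bmpr1b was at 221 against 78.7 over all members and 49.3 in members without astrocyte markers, with 462 in astrocyte-marker nuclei. Eng (endoglin) and Smad7 were lower at 55.9 against 202 and 35.9 against 109, and Eng lost its call, without a change of sign, in members with 5 or more rule genes.

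**Figure D4:**
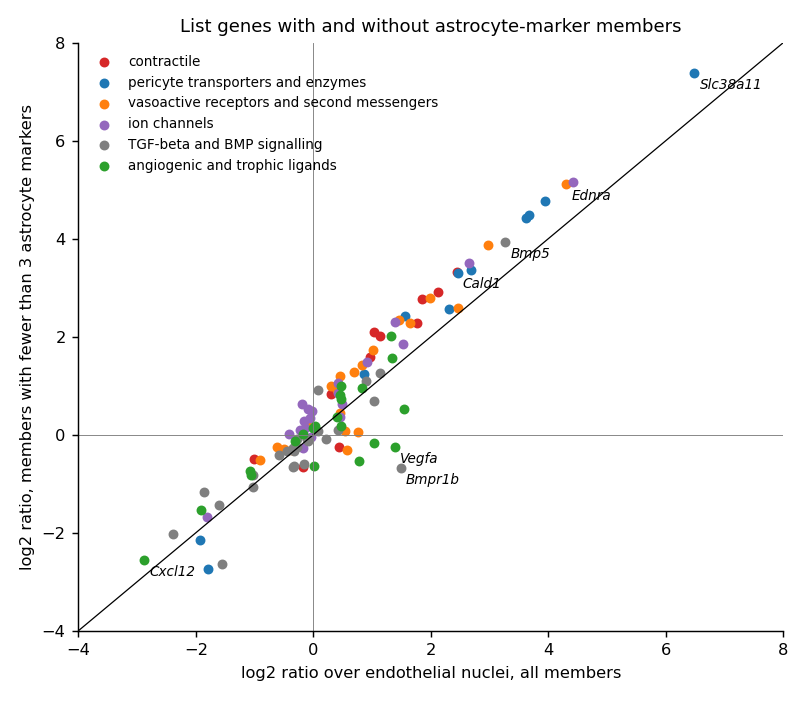
Log2 ratio over endothelial-rule nuclei of genes from 6 lists, over all members (x axis) and over members with fewer than 3 astrocyte markers (y axis). The black line marks equal ratios. Slc38a11, Ednra and Cald1 lie above it, and Vegfa and Bmpr1b lie far below it.

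Of 27 lysosomal and cholesterol genes, which bear on the Npc1 mutation, 2 were higher and 1 lower, with a median log2 ratio of 0.16. Npc1 itself stood at 47.7, 39.0, 27.1, 25.4, 37.5 and 14.6 CPM in members of libraries 1 to 6 and at 32.0 in endothelial-rule nuclei (log2 ratio 0.09, interval -0.18 to 0.35). With no key from library to mouse these values check no genotype. Soat1, which esterifies cholesterol, was at 67.1 against 31.6, but at 29.5 in members without astrocyte markers and 107 in astrocyte-marker nuclei. Without the astrocyte-marker members 1 was higher and 1 lower, with a median log2 ratio of -0.09, so the median changed sign. Abcg1, at 19.3 CPM against 42.8, lost its lower call there, and Abca1 gained one. Abca1, a cholesterol exporter, was at 175, 107 and 60.7 in members with 3, 4 and 5 or more rule genes and at 141 in endothelial-rule nuclei. None of 11 cell cycle genes was called over all members. Without the astrocyte-marker members 5 of 11 were higher, Cenpf, Tpx2, Cenpe, Cdk1 and Ccnb1, and none of 11 was called in members with 5 or more rule genes.

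Over all genes outside the rule, the largest ratios over endothelial-rule nuclei included Carmn, a long noncoding RNA of smooth muscle. It stood at 91.0, 37.2, 68.3, 65.6, 74.98 and 248 CPM in members of libraries 1 to 6, against 0.637 in endothelial-rule nuclei and 13.9 in fibroblast-rule nuclei (log2 ratio 6.85). Also among them were Cysltr2, a receptor for cysteinyl leukotrienes, at 43.3 against 1.23, the noncoding RNA Tbx3os1 at 132 against 7.47, and Mrvi1, a partner of cyclic GMP kinase, at 78.1 against 4.55. All 4 stood higher in members with 4 and with 5 or more rule genes than in those with 3. The lowest included Cyyr1 at 10.5 against 219 and Zfp366 at 11.0 against 232.

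Fibroblasts of the vessel wall and meninges share Pdgfrb and matrix genes with mural cells, so members were also set against 941 nuclei chosen by a fibroblast rule. Of 12678 genes 560 were higher (4.42%) and 794 lower (6.26%), with a median log2 ratio of -0.08. Ion channels outside the rule were higher in 7 of 20 cases and lower in none, and vasoactive genes were higher in 7 of 20 and lower in 3. TGF-beta and BMP genes were lower in 11 of 26 cases and higher in 2, and basement membrane genes lower in 6 of 25 and higher in 2. Transcription factors were higher in 4 of 20 cases and lower in 6, contractile genes higher in 2 of 10 and lower in 1 with a median log2 ratio of 0.29, transporters higher in 5 of 11 and lower in 3, and PDGF and NOTCH genes higher in 3 of 15 and lower in 3. Ligands were lower in 4 of 19 cases and higher in none, and none of 27 lysosomal and cholesterol genes was called. Gjc1, a gap junction protein of vascular muscle, was at 93.9 CPM against 17.3. Slc6a20a, an imino acid transporter that was 6.44-fold higher in members than in endothelial-rule nuclei, was lower against fibroblast-rule nuclei at 172 against 912. Bnc2, a zinc finger factor, was at 28.2 against 825.

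Between members with 5 or more rule genes and those with 3, 541 of 9552 genes were higher (5.66%) and 728 lower (7.62%). This comparison was added after the values were seen. Besides the astrocyte list, of which 4 of 7 markers were lower and none higher, the OPC list went down over the 3 classes of members, with 1421, 1087 and 534 CPM at 3, 4 and 5 or more rule genes and 15.6, 7.69 and 4.25% of nuclei with 3 or more OPC markers, and 3 of 5 OPC markers were lower. Their part in the ratios was not tested. Outside the rule, basement membrane genes were higher in 13 of 22 cases, transporters in 8 of 9 and ion channels in 8 of 17, each with none lower. Vasoactive genes were higher in 9 of 16 cases and transcription factors in 10 of 17, each with 1 lower. PDGF and NOTCH genes were higher in 4 of 11 cases and lower in 2, contractile genes higher in 3 of 6 and lower in 1, and ligands higher in 4 of 12 and lower in 2. TGF-beta and BMP genes were higher in 2 of 19 cases and lower in 3, and lysosomal and cholesterol genes lower in 3 of 23 and higher in none. Gjc1 stood at 18.4 CPM with 3 rule genes, 138 with 4 and 335 with 5 or more. Among the genes with the lowest ratios, picked after their values were seen, Cfap299 stood at 97.5, 14.2 and 2.64 and the ciliary dynein Dnah12 at 84.1, 7.11 and 3.96, against 74.1 and 61.3 in astrocyte-marker nuclei. Of 3 ependymal markers measured, Dnah12 among them, 1 was higher and 2 lower, and 7 of the 565 members with 3 rule genes had 3 or more. The ependymal list over all members ranged from 19.4 to 647 CPM between libraries (median 110). Cfap299 stood at 459 CPM in members of library 5 and at 14.6 to 73.7 in the other libraries, and Dnah12 at 356 in library 5 and at most 68.3 in the others.

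Smooth muscle markers were sparse at this depth. At least 3 of them were detected in 26 members (2.71%), which does not bound how many members are smooth muscle, and Cnn1 (calponin) had 2 UMIs over all members. A subset of 30 nuclei with 2 or more UMIs of Acta2 and Myh11 together, 5, 12, 6, 5, 1 and 1 in libraries 1 to 6, reached 3 such markers in 56.7% of cases, a share set in part by the choice, since both genes are on the smooth muscle list. The same nuclei reached 3 pericyte markers in 63.3% of cases, and their pericyte list stood at 2939 CPM against 2000.2 for the smooth muscle list. The pericyte list holds rule genes as well, so these values are set in part by the rule. Rgs5 stood at 901, Atp13a5 at 673 and Notch3 at 645 CPM, and Abcc9 at 47.4 from 5 UMIs. The nuclei are called Acta2 and Myh11 nuclei here after the genes that chose them, and whether they are smooth muscle was not tested. The subset was compared with 361 members with no UMI of either and 2 or more of Abcc9, Kcnj8, Atp13a5 and Higd1b. Of 8228 genes 229 were higher (2.78%) and 136 lower (1.65%), so 62.7% of calls were higher. With TMM scaling, which moved all ratios by 0.17 on the log2 scale, 33.7% were higher, and the balance of directions is not read. Markers of other cells differed as well, with 3 or more astrocyte markers in 13.3% of the 30 nuclei and 31.9% of the 361 and an OPC (oligodendrocyte precursor) list at 502 against 1011 CPM. Of 6 oligodendrocyte markers 2 were higher (median log2 ratio 0.68), and 1 of 7 astrocyte and 1 of 5 OPC markers were lower. Their part in the ratios was not tested. Tagln stood at 161 CPM against 5.68 (log2 ratio 4.83, interval 3.54 to 6.25), from 17 UMIs in the 30 nuclei. Ntn4, a netrin, stood at 332 against 15.6 (log2 ratio 4.41, interval 3.60 to 5.25), Pde3a at 1422 against 248 (2.52, interval 2.24 to 2.80) and Slc38a11 at 1005 against 292 (1.78, interval 1.46 to 2.09). Those 3 were higher in all 6 libraries, although 2 libraries gave 1 nucleus each. Myl9 was at 228 against 64.6 and Mylk at 190 against 119, with an interval for Mylk of -0.08 to 1.34 that includes no change. That interval left out no change without the nuclei in the top 5% of UMIs (log2 ratio 0.93, 0.17 to 1.61) and in members with 5 or more rule genes (1.07, 0.11 to 1.92). It included no change with 2 or more rule genes (0.017, -0.71 to 0.67) and without members of glial or immune markers (-0.12, -1.39 to 0.94), so the direction for Mylk is not read. Outside the rule, contractile genes were higher in 2 of 8 cases and lower in none, ion channels higher in 2 of 17 and lower in none, TGF-beta and BMP genes higher in 2 of 20 and lower in none, and PDGF and NOTCH genes higher in 1 of 10 and lower in none. Transporters were higher in 1 of 10 cases and lower in 2, and vasoactive genes (15), basement membrane genes (21) and transcription factors (17) had 1 higher and 1 lower each. Lysosomal and cholesterol genes were lower in 2 of 19 cases and higher in none, and none of 8 ligands was called. The lower transporters were Art3, at 28.4 against 152 CPM, and Slc30a10, a manganese exporter, at 28.4 against 110, each from 3 UMIs in the 30 nuclei. The basement membrane protein Nid1 was lower at 56.9 against 136.

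Library shares of members were 1.43, 1.58, 1.31, 1.62, 0.565 and 0.682%, so libraries 5 and 6 stood apart with intervals of 0.433 to 0.725 and 0.515 to 0.884%. Endothelial-rule nuclei were also fewest there, at 3.27 and 2.69% against 6.82 to 8.61% in libraries 1 to 4. Per 100 endothelial-rule nuclei the members numbered 21.0, 20.1, 17.5, 18.9, 17.3 and 25.3, and 19.5 in all (interval 18.1 to 20.9). With all members the counting intervals of all 6 libraries overlapped for the number per endothelial nucleus, while for the share of all nuclei those of libraries 5 and 6 lay below the rest. Without the astrocyte-marker members it was 12.1, 10.9, 8.72, 8.77, 8.78 and 16.7, and the interval of library 6 (11.5 to 23.8) then lay above those of libraries 3 (7.003 to 10.75) and 4 (7.01 to 10.9). When each nucleus was thinned to 2000 UMIs, which left out 8229 shallower nuclei, 610 of 67638 (0.902%) met the rule against 1.24% of the same nuclei unthinned. Of the 610, 382 were members before thinning, and the others met the exclusion limits only once thinned. The share was 0.889, 1.101, 0.948, 1.25, 0.334 and 0.416% by library. Shares of a class depend on how nuclei were recovered, which was not tested.

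**Figure D5:**
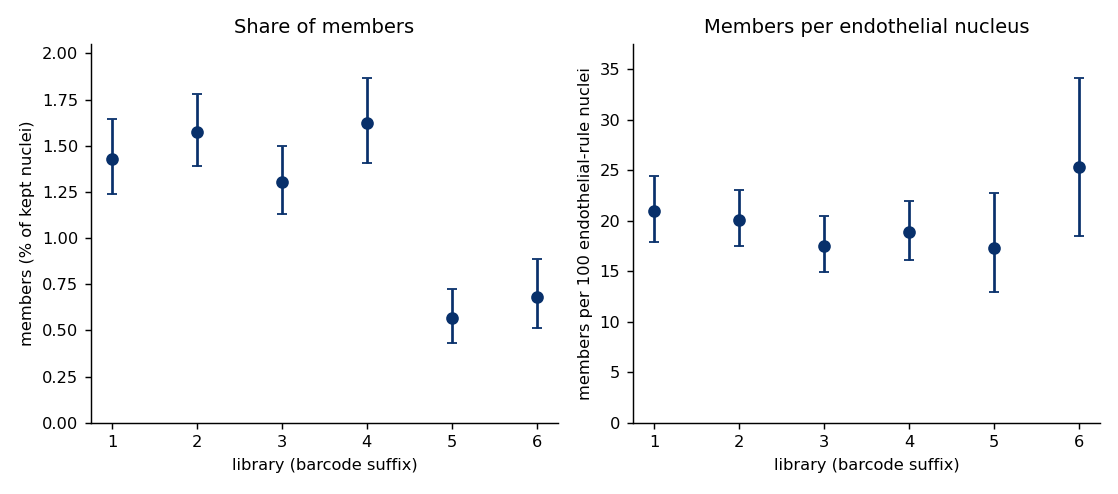
Members as a share of kept nuclei (left, percent) and per 100 endothelial-rule nuclei (right) in each library (x axis), with exact 95% intervals that cover counting error only. Libraries 5 and 6 lie below the others on the left, at 0.565 and 0.682%, while the intervals of all 6 overlap on the right.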

How the data were processed

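Nuclei were profiled by droplet 3' RNA-seq. The deposited matrix joins 6 libraries and holds raw UMI counts as integers, which the authors had not normalized. Its file header names Cell Ranger 6.0.0, the submitters' processing notes name Cell Ranger 2.1.1 and mm10, and the study's methods describe STARsolo and GRCm38, so the route to this matrix is not settled. The authors describe removal of multiplets with DoubletFinder, but no source used here says if that step was applied to this matrix. No doublet caller was run, and nothing was imputed.

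Of 75878 barcodes 11 with a mitochondrial share of 10% or more were left out. Counts were summed over the nuclei of a class and scaled to 1000000, with no p-values. Ratios had exact binomial intervals and shares exact Clopper-Pearson intervals (95%). Genes with 50 UMIs or more over both classes were compared (30 for the subsets of members), and a gene with no UMI in a class was set at 3 counts. Endothelial-rule and fibroblast-rule nuclei had 3 or more of 9 markers of their type, with limits on mural and neuronal genes. Astrocyte-marker nuclei had 5 or more astrocyte markers and were added after the values were seen, as were the classes by number of rule genes, the members without astrocyte markers and the motif search. Depth was 51343653 to 107583300 UMIs per library, and 4291869 over all members, which limits low genes. Members and lists were chosen with earlier results of these data known. Named were the rule genes and, from among these ranks and not in full, up to 5 genes per list with the largest ratio over endothelial-rule nuclei and those called against the list median, the 10 highest and lowest over all genes, and 12 each between the subsets; genes that gained or lost a call, and Gjc1, Bnc2 and cilia genes outside these ranks, were picked after seeing values. Alternatives changed the rule, exclusions, scaling (TMM), UMI minimum and libraries. The scripts were tested on simulated data. Promoters came from RefSeq. Some listed genes are counted but not reported here by name. Python 3.11.15, numpy 2.4.6, scipy 1.17.1 and pandas 2.3.3 were used.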

Additional observations from a re-analysis of the deposited data

How the results depend on the processing

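The share of members followed the rule closely. It was 1.26% as reported, 5.45% with 2 or more rule genes, 0.519% with 4 or more, 0.279% with 5 or more, 0.422% with the exclusion genes at 0, 0.414% without members of 3 or more glial or immune markers and 0.670% without those of 3 or more astrocyte markers. Leaving out each library in turn gave 1.18 to 1.38%. Members per 100 endothelial-rule nuclei went from 19.5 to 13.7 with 4 or more genes for both classes, 10.3 without the astrocyte-marker members and 17.2 after thinning (19.1 to 20.03 without each library). The share at equal depth was 0.902% at 2000 UMIs and 0.767% at 1000.

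Calls over endothelial-rule nuclei numbered 1439, 1176 with astrocyte-marker nuclei left out of both classes and 874 with a minimum of 200 UMIs (1355 to 1471 without each library). Over fibroblast-rule nuclei they numbered 1354, and 2189 with 2 or more rule genes, 2168 with no minimum and 656 with a minimum of 200 UMIs (1224 to 1377). Between the Acta2 and Myh11 nuclei and the pericyte subset they numbered 365, and 152 with the exclusion genes at 0, 157 without glial or immune markers, 70 with a minimum of 200 UMIs and 1592 as the median over libraries (297 to 389). Higher minimums test fewer genes.

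Log2 ratios over endothelial-rule nuclei turned for Ebf1 (0.27 to -1.63 with 2 or more rule genes) and Col4a1 (-0.26 to 0.45 with 4 or more, 0.67 with 5 or more, 0.28 without glial or immune markers, 0.32 without astrocyte markers and 0.19 with those left out of both classes). Slc1a3, itself an astrocyte marker, went from 1.73 to -0.28 without members of glial or immune markers and -0.35 without those of astrocyte markers. With 5 or more rule genes it was at -0.033, with an interval (-0.25 to 0.17) that includes no change. With astrocyte-marker nuclei left out of both classes, 1 of 7 astrocyte markers was higher and none lower. Over fibroblast-rule nuclei log2 ratios turned for Vtn (0.26 to -0.95 with 2 or more and -0.15 with the exclusion genes at 0), Col4a1 (0.31 to -0.55 with 2 or more) and Slc1a3 (0.17 to -0.11 with 2 or more, -0.89 with 4 or more, -1.58 with 5 or more, -1.83 without members of glial or immune markers and -1.90 without those of astrocyte markers). The screens by glial or astrocyte markers count Slc1a3 itself and were made on members alone. Its values without those members are thus set in part by the screen. Of fibroblast-rule nuclei, 45.3% had 3 or more astrocyte markers. The cause of the other turns was not tested. Between WT and Npc1-/- mice, no paired analysis was possible because the barcode suffixes carry no mouse or replicate number. Members and the classes set against them came from the same libraries, so this limit does not apply to their ratios. With the median over libraries, calls numbered 1230 over endothelial-rule nuclei and 1256 over fibroblast-rule nuclei. The settings of 5 or more genes, without astrocyte markers (in members or both classes) and without barcodes shared between libraries were chosen after seeing the data. Genes under 50 UMIs over both classes were not compared.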

Other observations

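The 948 nuclei with 5 or more rule genes and more than 1 UMI of Flt1, of which 594 broke no other limit, were described after the values were seen. They held the pericyte list at 4582 CPM and the smooth muscle list at 639, against 6034 and 430 in the 212 members with 5 or more rule genes. At least 3 smooth muscle markers were detected in 149 of the 948 (15.7%, exact interval 13.5 to 18.2%), against 15 of the 212 members (7.08%, 4.01 to 11.4%), with median depths of 7457.5 and 2995.5 UMIs. Acta2 stood at 183 CPM in them, Tagln at 85.5 and Vtn at 407, against 46.2, 21.1 and 385 in the 212 members. Acta2 was detected in 93 of the 948 nuclei (9.81%), with 1721 UMIs, and in 9.43% of the 212, so detection was nearly equal. Slc38a11 stood at 255 against 503 and Ednra at 186 against 384. Astrocyte markers reached 3 or more in 38.6% of them.

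Of 959 members, 7 carried 16 barcode bases that also occurred in another library, and 631 such barcodes were found over all libraries. The endothelial list stood at 381 CPM in members and the macrophage list at 40.1, with 3 or more macrophage markers in 2 members.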
